A study of Mus musculus with 71 samples.

Results

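The genes described here are the DEAD-box and DEAH-box RNA helicase genes of male mouse embryonic stem cells. They were chosen by symbol alone, as every gene whose name is Ddx or Dhx followed by a number, without Ddx6. This rule took 52 of the 21527 genes in the tables, and all 71 libraries of the series were used. The rule uses the symbol and no measured value, although this set was picked for description with earlier results of these data known.

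SLAM-seq follows RNA decay through a chemical label: cells build the uridine analogue s4U into new RNA, the label is chased with an excess of uridine, and iodoacetamide turns the remaining s4U into T-to-C conversions in sequencing reads. Cells grown in 2i/LIF medium received 100 µM s4U over 24 h. The inhibitor STM2457 (20 µM), which blocks the m6A methyltransferase Mettl3, or its solvent DMSO was present from 6 h before the chase until harvest. RNA was collected 0, 1, 1.5, 2.3, 3.5, 5.3, 8 and 12 h into the chase, so that 0 h of chase is 6 h of treatment. There were 4 libraries per treatment and time point, but 3 for STM2457 at 3.5 h. A further 4 libraries of each treatment came from cells without s4U (unlabelled), whose hours of treatment are not given in the sources used here. All groups were the same male line and differ only in treatment, time and s4U labelling, and the inhibitor was tested at 1 concentration. The study describes its replicates as independent biological ones, while the labels name no culture behind a library, so p-values measure the spread between these libraries. In such bulk samples, fewer cells with a transcript and less of it per cell cannot be told apart, and reads were counted without molecular identifiers.

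DEAD-box and DEAH-box proteins bind RNA and use ATP to unwind short duplexes or to strip proteins from RNA. They are named after the amino acids of motif II, the stretch that binds ATP and magnesium. DEAD-box enzymes open duplexes locally, whereas DEAH-box enzymes move along a strand and are typical of the spliceosome. Together they serve nearly every step of an RNA's life, from transcription, splicing and ribosome assembly to export, translation, decay and the sensing of viral RNA.

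The codons of motif II are shown for the members with the clearest changes in read count and for the paralog pairs, because this motif defines the family. Motif II lies in the coding sequence, whereas reads were counted in 3′ UTR windows. Its likeness between paralogs therefore does not show whether their reads could be confused. The sequences come from the longest coding transcript of each gene in GENCODE M21 on GRCm38, read 5′ to 3′ on the strand of the gene. The 12 bases in capitals are the codons of motif II, with 9 bases on each side in lower case.
Ddx20: tttattcttGATGAAGCAGATaagctttta
Dhx16: gtgatggtgGATGAAGCTCACgagcggacc
Ddx3x: ctggtgttaGATGAAGCTGACcggatgtta
Ddx3y: ttagtattgGATGAAGCTGATaggatgctg
Ddx5: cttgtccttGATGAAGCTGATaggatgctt
Ddx17: cttgtgttgGATGAGGCTGACcggatgctt
Ddx19a: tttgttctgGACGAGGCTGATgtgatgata
Ddx19b: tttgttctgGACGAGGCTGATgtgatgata
Ddx39: tttgtgctaGATGAATGTGACaagatgctg
Ddx39b: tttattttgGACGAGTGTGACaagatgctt
Ddx21: gttgtcctgGATGAAGTCGACcagatgttg
Ddx50: gttgtgcttGATGAAGTAGATcaaatgtta

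Each of these stretches lies within 1 coding exon. Ddx20 is at chr3:105683445-105683474 on the minus strand, Dhx16 at chr17:35885499-35885528 on the plus strand, and Ddx3x at chrX:13289399-13289428 on the plus strand, with Ddx3y at chrY:1265940-1265969 on the minus strand. Ddx5 is at chr11:106785184-106785213 and Ddx17 at chr15:79538866-79538895, both on the minus strand. The Ddx19a stretch at chr8:110979077-110979106 and the Ddx19b stretch at chr8:111011326-111011355, both on the minus strand, differ at 0 of 30 bases. Ddx39 (chr8:83721101-83721130) and Ddx39b (chr17:35247081-35247110), both on the plus strand, carry TGT as the third codon and so read DECD in place of DEAD. They differ at 7 of 30 bases, 2 of them within the capitals (T12C and A15G, with the base of Ddx39 first and positions counted from 1 at the 5′ end). Ddx21 (chr10:62591872-62591901) and Ddx50 (chr10:62640502-62640531), on the minus strand, differ at 6 bases, Ddx5 and Ddx17 also at 6, and Ddx3x and Ddx3y at 8.

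A search of the translated sequences found motif II in 45 of the 52 members. It took aspartate, glutamate, any residue and then aspartate or histidine, placed 50 to 230 residues after a motif I (glycine, then lysine or serine, then threonine or serine) and 24 to 60 residues before a motif III (serine or threonine, alanine or glycine, threonine). Among all 21877 coding genes, 0.517% held this pattern. The form was DEAD in 25 Ddx genes, DECD in 2, and DEAH in 8 Dhx genes, while 4 Ddx and 6 Dhx genes carried another residue. For 7 members (Ddx1, Ddx11, Ddx28, Ddx51, Ddx58, Dhx32 and Dhx58) these letters were not found at this spacing, which says nothing about the helicase fold. The letters GGACT, a form of the sequence in which Mettl3 methylates adenosine, occurred on the transcript strand in 52 of 52 members and in 86.2% of all coding genes, at a median of 1.03 per kb in the members and 1.02 per kb in all. The members' transcripts were longer, with a median of 3455 against 2459 bases. Ddx20 held 6 such matches, Ddx28 held 4 and Dhx16 held 3, which marks letters and not methylated sites.

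The libraries held 4539726 to 7368244 counted reads in DMSO and 4704543 to 6804970 in STM2457. Helicase genes took 0.477 to 0.558% of these reads in DMSO (median 0.518) and 0.478 to 0.548% in STM2457 (median 0.503). Over 9 of 10 listed embryonic stem cell markers, the summed level was 3470 to 5224 CPM (reads scaled to a library total of 1000000) in DMSO and 3794 to 4865 CPM in STM2457. Over 9 of 10 listed markers of other cell types, the sum was 20.2 to 96.0 CPM in DMSO and 20.5 to 84.6 CPM in STM2457, and 5 of the 9 had a median under 1 CPM. Part of the libraries stood apart: the first principal component over the 12659 genes tested held 14.01% of the variance. The lowest scores on it belonged to STM2457 at 1 h (-74.2 in the lowest library) and to DMSO at 1 h, where replicates 2 to 4 scored -71.1 to -41.6. DMSO replicates 2 and 4 at 1.5 h, 3 and 4 at 5.3 h, 1 at 0 h and unlabelled replicate 4 also scored low. Among helicase genes, Dhx8, Ddx18, Ddx41, Ddx24 and Ddx39b had the highest loadings on this axis, and Ddx4, Ddx19a and Ddx43 the lowest. The axis was computed from the read counts of the same genes, and its part in the results was not tested beyond fits that held it as a covariate.

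**Figure D1:**
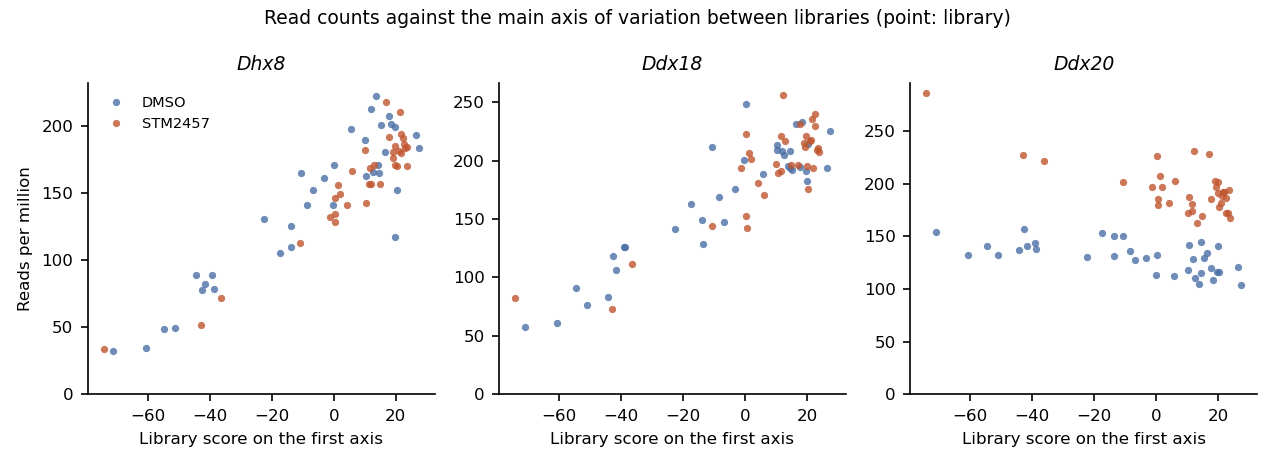
CPM (y) of Dhx8, Ddx18 and Ddx20 against the score of each of the 71 libraries on the first principal component (x), with DMSO in blue and STM2457 in orange. Dhx8, a splicing helicase, ran from 32.03 to 223 CPM in the chase libraries in DMSO and from 33.9 to 211 CPM in STM2457 along the score, whereas the Ddx20 points of the treatments stayed apart along it.

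Helicase transcripts changed in both directions under STM2457. The comparison asks how the level of each transcript, relative to the rest of its library, differed when m6A was being depleted, averaged over the 8 chase time points. Counts were scaled on the genes themselves and not on an outside standard, so higher and lower are relative and not absolute amounts. The paper cautions that scaling to total abundance can bias a comparison when most genes respond to the treatment. Of 50 genes with enough reads, 25 changed (edgeR, adjusted p under 0.01), 10 higher and 15 lower. Over all 12659 genes tested, 26.5% changed, 13.9% higher and 12.6% lower. The median log2 change was -0.082 over the helicase genes and -0.009 over all genes. Among the genes past the threshold, the largest rises were those of Ddx28 and Ddx20, at 1.54 and 1.51 times DMSO, and the largest falls those of Dhx16 and Ddx19a, at 0.72 and 0.77 times DMSO. With the library axis as a covariate, the count stayed at 25 (10 higher and 15 lower), of which 21 were the same genes and Ddx19a, Ddx46, Ddx47 and Dhx9 were lost. In their place Ddx21 was called higher and Ddx41, Dhx8 and Dhx29 lower, although the changes of Ddx41 (0.048) and Dhx8 (0.18) were above 0 without the covariate. By role, new calls included, the covariate fit called 1 spliceosomal gene higher and 4 lower, and 2 of ribosome assembly higher and 4 lower. It called 2 export and 2 translation genes lower, and of transcription and RNP assembly 2 higher and 1 lower. In the remaining groups, 2 mitochondrial, 2 less studied and 1 RNA-sensing gene were higher, and 1 less studied gene and 1 DNA helicase gene lower. With only 2.3, 3.5, 8 and 12 h, which hold none of the 12 lowest scores on the axis, 11 of the 25 remained, 6 higher and 5 lower. Those lost were Ddx1, Ddx3x, Ddx11, Ddx19a, Ddx19b, Ddx24, Ddx39, Ddx46, Ddx47, Ddx51, Ddx58, Ddx59, Dhx9 and Dhx57. This subset averages fewer libraries, so standard errors were larger (for Ddx1 0.057 against 0.040) and a lost call need not mean a smaller change. Ddx11 was lost at -0.34 ± 0.11 (adjusted p = 0.015), against -0.25 over all time points. The share of all genes called is not given here for this subset or for the covariate fit. Leaving out 1 replicate number of 1 treatment at a time kept 20 to 24 of the 25. The calls lost in at least 1 of these fits were those of Ddx11, Ddx39b, Ddx47, Ddx59, Dhx9, Dhx30 and Dhx57. Ddx60 had too few reads to be tested, and Ddx3y was listed at 0.

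**Figure D2:**
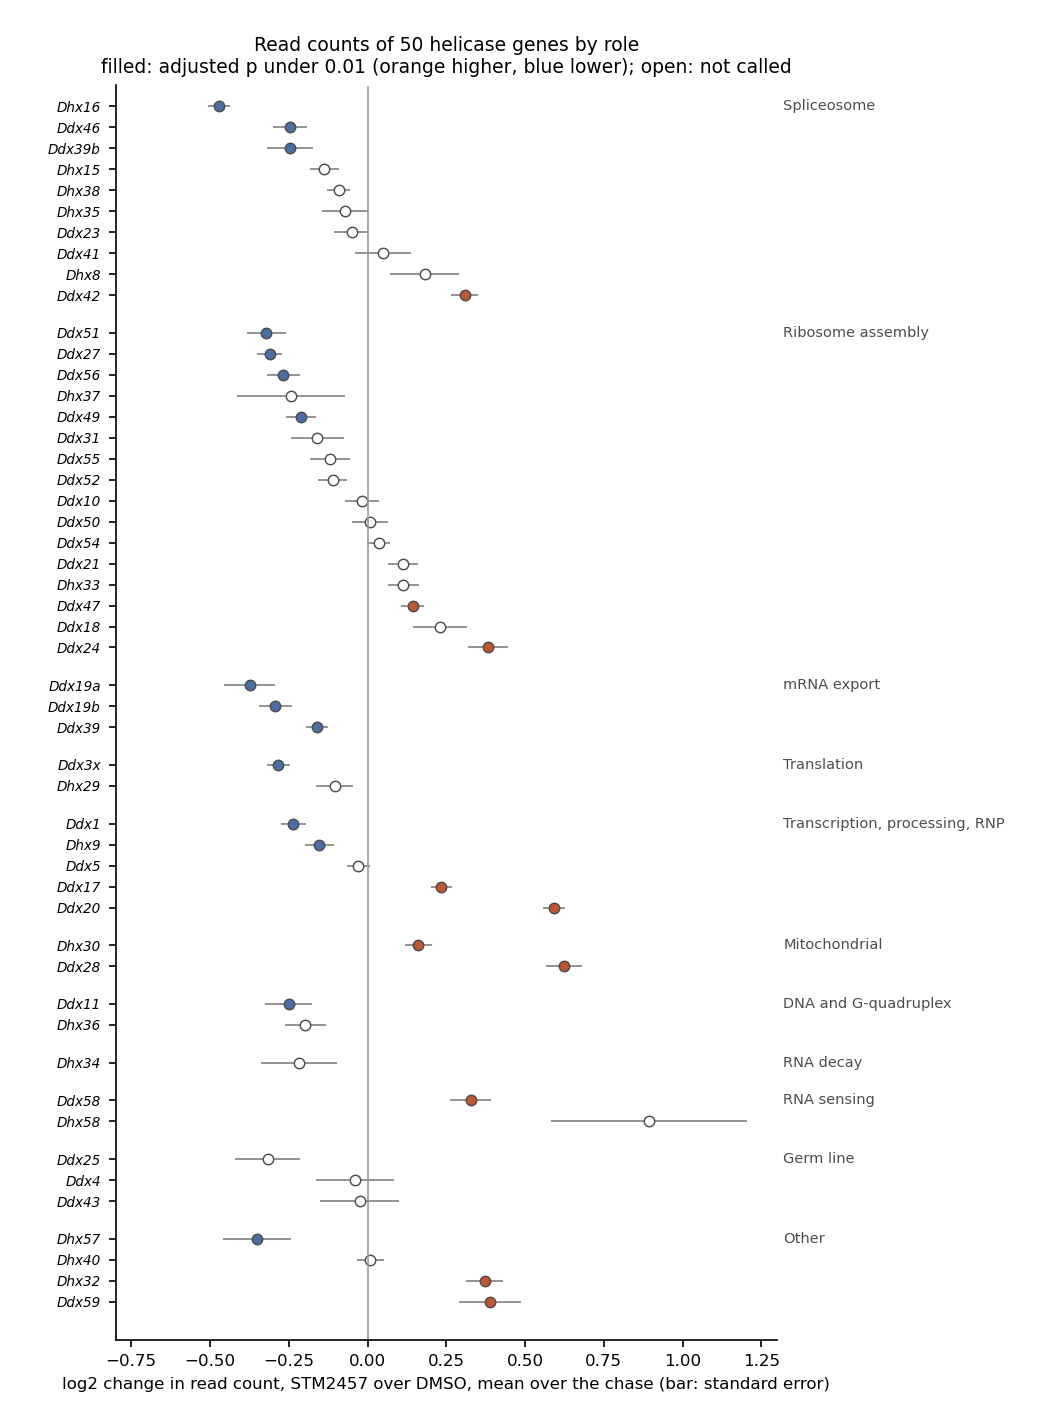
The log2 change in read count (x; STM2457 over DMSO, mean over the chase, bars giving the standard error) for the 50 helicase genes tested, grouped by role (y), with filled points for genes past the threshold. The points run from -0.47 for Dhx16 to 0.89 for Dhx58, whose open point carries the widest bar.

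Spliceosomal helicases remodel the spliceosome between its assembly steps. Of 10 such genes, 1 was higher and 3 were lower, where 13.9% of all genes were higher and 12.6% lower. Dhx16, the helicase that prepares the assembled spliceosome for the first cleavage, was the member with the largest fall. At 0 h its 4 DMSO libraries held 325, 328, 300.4 and 306 CPM and its STM2457 libraries 249.9, 265, 228 and 209.8 CPM. The highest STM2457 library lay below the lowest DMSO library there, and the same held at 7 of the 8 time points. Over the chase, DMSO ran from 184 to 361 CPM with a median of 278, and STM2457 from 147 to 265 with a median of 189.9. The log2 change was -0.47 ± 0.035 (SE; adjusted p = 2e-18).

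Ddx39b, which joins the earliest splicing complex and then helps mRNA leave the nucleus, was lower by a log2 change of -0.25 ± 0.074 (adjusted p = 0.0061). Its DMSO libraries at 5.3 h held 411, 315, 184 and 158 CPM, against 268, 260.1, 273 and 271 CPM in STM2457. The low DMSO libraries there were replicates 3 and 4, which also scored low on the library axis. With the axis as a covariate the change was -0.49 ± 0.035, and without DMSO replicate 1 it was -0.15. It missed the threshold there and without DMSO replicate 3 (-0.24), STM2457 replicate 1 (-0.23) or STM2457 replicate 2. Ddx46, which acts when the U2 particle joins the intron, changed by -0.25 ± 0.054 (adjusted p = 0.00017), by -0.14 with the axis as a covariate (adjusted p = 0.025) and by -0.044 with only 2.3, 3.5, 8 and 12 h (adjusted p = 0.75). Ddx42, a helicase found with the U2 particle, was the member of this group that rose (0.31 ± 0.042, adjusted p = 7.6e-09). Its mean was higher in STM2457 at all 8 time points, although all libraries of a time point lay above DMSO at only 3. Ddx23, Ddx41, Dhx8, Dhx15, Dhx35 and Dhx38 did not pass, with log2 changes from -0.14 for Dhx15 to 0.18 for Dhx8.

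Ribosome assembly occupies the largest group, whose members help fold and cut ribosomal RNA in the nucleolus. Of 16, 2 were higher and 4 were lower, where 13.9% of all genes were higher and 12.6% lower. The median log2 change of the group was -0.064. Ddx27, needed for large-subunit assembly, had 120 to 179 CPM in DMSO (median 140.0) and 90.6 to 142 in STM2457 (median 111). All STM2457 libraries lay below DMSO at 5 of 8 time points, and the log2 change was -0.31 ± 0.039 (adjusted p = 5.7e-10). Ddx51 (-0.32 ± 0.063, adjusted p = 2.9e-05), Ddx56 (-0.27 ± 0.052, adjusted p = 2.4e-05) and Ddx49 (-0.21 ± 0.048, adjusted p = 0.00022) also fell. Ddx24 rose by 0.38 ± 0.064 (adjusted p = 1.3e-06) and Ddx47 by 0.14 ± 0.036 (adjusted p = 0.00091).

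Ddx24 was among the genes that followed the library axis. At 5.3 h its DMSO libraries held 304, 267, 164 and 169 CPM, with the low values again in replicates 3 and 4, and its STM2457 libraries 359, 378, 351 and 379 CPM. All 4 STM2457 libraries lay above DMSO, and the log2 change over the chase was 0.17 ± 0.034 with the axis as a covariate (adjusted p = 2.2e-05). Ddx21, a nucleolar helicase tied to ribosomal RNA synthesis, and its neighbour and paralog Ddx50 did not pass the test. Ddx21 changed by 0.11 ± 0.048 (adjusted p = 0.055) and Ddx50 by 0.009 ± 0.057 (adjusted p = 0.93). Multimapping reads made up 18.5% of the Ddx50 reads and 36.6% of those of Ddx18, a further ribosome assembly helicase that did not pass (0.23 ± 0.086, adjusted p = 0.028). Ddx10, Ddx31, Ddx52, Ddx54, Ddx55, Dhx33 and Dhx37 did not pass either.

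The mRNA export helicases release mRNA at the nuclear pore or load export factors onto it, and 3 of 3 were called lower, where 12.6% of all genes were. None of the 3 passed with only 2.3, 3.5, 8 and 12 h, at -0.15 for Ddx19a (adjusted p = 0.4), -0.23 for Ddx19b (adjusted p = 0.02) and -0.14 for Ddx39 (adjusted p = 0.032). Ddx19a and Ddx19b are near-identical neighbours on chromosome 8, yet only 0.375% and 3.09% of their reads in the 3′ windows mapped to more than 1 place. Ddx19a had 17.3 to 47.7 CPM in DMSO (median 29.2) and 13.7 to 42.6 in STM2457 (median 22.7). These ranges overlap broadly, and all libraries of a time point were separate only at 1 of 8. Its log2 change was -0.37 ± 0.081 (adjusted p = 0.00013), and -0.18 ± 0.075 with the library axis as a covariate (adjusted p = 0.045). Ddx19b changed by -0.29 ± 0.053 (adjusted p = 6.5e-06), from a DMSO median of 53.2 to an STM2457 median of 43.1 CPM. Ddx39, the close paralog of Ddx39b, changed by -0.16 ± 0.036 (adjusted p = 0.0002), with 239.8 to 334 CPM in DMSO and 209.8 to 307 in STM2457.

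Translation helicases help ribosomes through structured 5′ leaders. Ddx3x, on the X chromosome, fell by a log2 change of -0.28 ± 0.037 (adjusted p = 3.1e-09). At 0 h its DMSO libraries held 299, 257, 246 and 265 CPM and its STM2457 libraries 215, 217, 196 and 173 CPM, without overlap. At 12 h they held 237, 235, 241 and 267 against 272, 262, 228 and 273 CPM, and the groups overlapped. Since 58.3% of Ddx3x reads mapped to more than 1 place, the test was repeated on uniquely mapping reads, which gave -0.29 ± 0.054 (adjusted p = 8.1e-06). Ddx3y, its Y-linked counterpart, was listed with 0 reads in all 71 libraries. The study kept only autosomal and X-linked genes, so this value says nothing of Ddx3y expression. Dhx29, which binds the small ribosomal subunit, changed by -0.10 ± 0.059 and did not pass (adjusted p = 0.17).

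Helicases of transcription, RNA processing and RNP assembly split, with 2 of 5 higher and 2 lower. Of all genes, 13.9% were higher and 12.6% lower. Ddx20, also called Gemin3, belongs to the SMN complex that assembles spliceosomal small nuclear RNPs. Its 4 DMSO libraries at 0 h held 144, 131, 113 and 136 CPM, and its STM2457 libraries 197, 202, 174 and 181 CPM. Every STM2457 library of a time point lay above every DMSO library at all 8 time points. DMSO ran from 104 to 154 CPM over the chase (median 130.2) and STM2457 from 163 to 287 (median 188), so the ranges did not overlap across the whole chase either. The log2 change was 0.59 ± 0.035 (adjusted p = 1.4e-23).

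Ddx5 and Ddx17 are paralogs that act as transcription cofactors and in microRNA processing. Ddx17 rose by 0.23 ± 0.033 (adjusted p = 1.9e-08), with all STM2457 libraries above DMSO at 5 of 8 time points and medians of 185 and 216 CPM. Ddx5 changed by -0.029 ± 0.037 (adjusted p = 0.59), with medians of 172 and 166 CPM. The difference between the paralogs was not tested. Ddx1, a part of the tRNA ligase complex, fell by 0.24 on the log2 scale (SE 0.040, adjusted p = 1.8e-06) and Dhx9, which unwinds double-stranded RNA in the nucleus, by 0.15 (SE 0.046, adjusted p = 0.0058). With the library axis as a covariate these changes were -0.14 (adjusted p = 0.00052) and -0.047 (adjusted p = 0.38). The Dhx9 call was also lost without DMSO replicate 2, 3 or 4 or STM2457 replicate 2 or 3.

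The mitochondrial helicases, both tied to assembly of the mitochondrial ribosome, were called higher in 2 of 2, where 13.9% of all genes were. Ddx28 had 14.9 to 84.6 CPM in DMSO (median 48.6) and 45.7 to 135 in STM2457 (median 72.0), and the treatments were fully separate at 6 of 8 time points. At 12 h its DMSO libraries held 28.6, 21.5, 18.7 and 14.9 CPM and its STM2457 libraries 45.7, 59.9, 49.99 and 50.02 CPM. The lowest STM2457 library thus exceeded the highest DMSO library by a wide margin. The log2 change over the chase was 0.63 ± 0.057 (adjusted p = 8.7e-15). Dhx30 changed by 0.16 ± 0.043 (adjusted p = 0.0017), and its treatments overlapped at every time point. Its call was lost without DMSO replicate 1, STM2457 replicate 2 or STM2457 replicate 3.

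The remaining groups are small. Of the helicases that sense viral RNA, Ddx58 (RIG-I) rose by 0.33 ± 0.065 (adjusted p = 3.6e-05), with medians of 41.8 CPM in DMSO and 48.3 in STM2457, and with the axis as a covariate by 0.19 ± 0.060 (adjusted p = 0.0065). Its relative Dhx58 (LGP2) had a median of 0.69 CPM in DMSO and 1.69 in STM2457 and did not pass (0.89 ± 0.31, adjusted p = 0.019). Ddx60 had 0 to 3 reads per library. Ddx11, a DNA helicase of sister chromatid cohesion, fell by 0.25 (SE 0.075, adjusted p = 0.0058), while Dhx36, which resolves G-quadruplexes, changed by -0.20 ± 0.065 (adjusted p = 0.011). The Ddx11 call was lost without DMSO replicate 1 or 4 or STM2457 replicate 1, 2 or 3.

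Among the less studied members, Ddx59 (0.39 ± 0.098, adjusted p = 0.00095) and Dhx32 (0.37 ± 0.058, adjusted p = 2.2e-07) rose and Dhx57 fell (-0.35 ± 0.11, adjusted p = 0.0072). Ddx59 had 5.75 to 26.4 CPM in DMSO and 10.7 to 33.6 in STM2457, and Dhx57 8.60 to 22.8 and 3.496 to 20.9 CPM. Both ranges overlap broadly. Dhx57 missed the threshold in 6 of the 8 fits that each left out 1 replicate number of 1 treatment, and Ddx59 in 1 (without STM2457 replicate 1). Dhx40, the decay factor Dhx34 and the germ line helicases Ddx4, Ddx25 and Ddx43 did not pass.

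**Figure D3:**
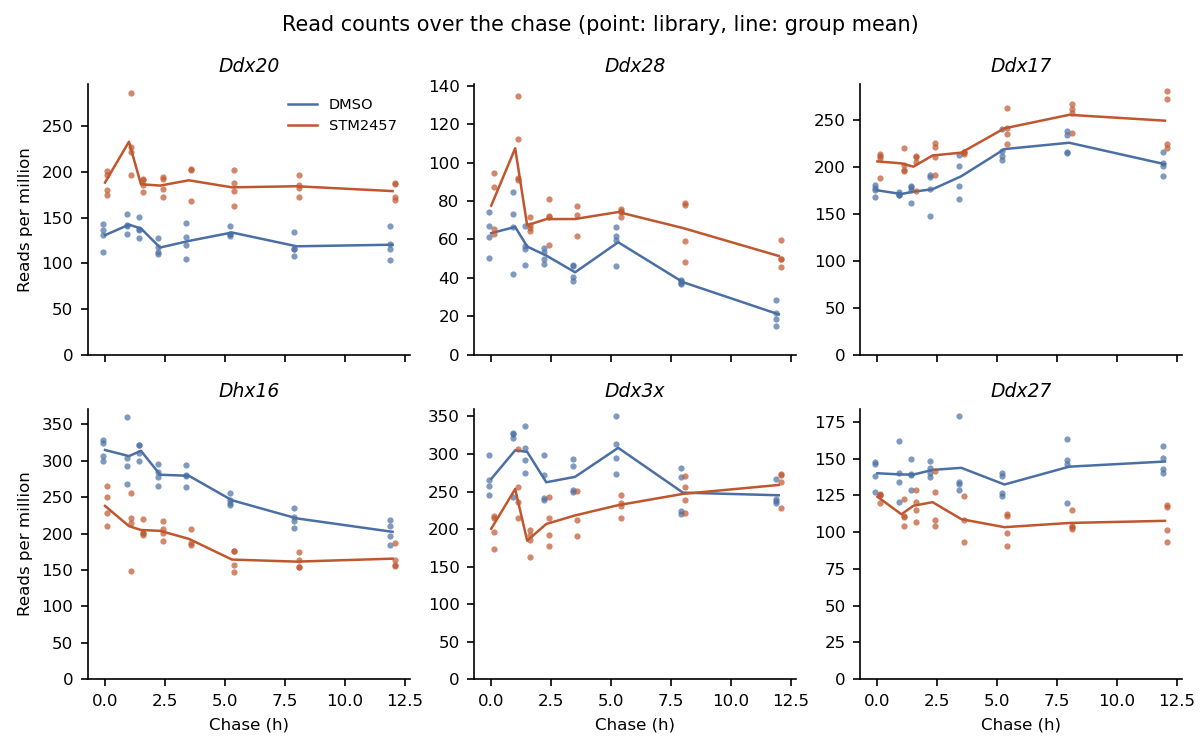
CPM (y) against hours of chase (x) for Ddx20, Ddx28, Ddx17, Dhx16, Ddx3x and Ddx27, with 1 point per library, lines through the group means, DMSO in blue and STM2457 in orange. Ddx20 stayed apart throughout, Ddx28 declined in DMSO to 20.9 ± 5.8 CPM (SD, n = 4) at 12 h against 51.4 ± 6.0 in STM2457, and the Ddx3x lines met by 8 h.

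Single time points have 4 libraries a group and show which of these changes could be seen at once. At 0 h, after 6 h of inhibitor, Ddx20 alone passed among the helicase genes (0.55 ± 0.097, adjusted p = 8.7e-05), where 1.68% of all genes did. In the unlabelled libraries 2 passed, against 2.58% of all genes. They were Ddx20 (0.60 ± 0.097, adjusted p = 1.2e-05) and Ddx51 (-0.75 ± 0.18, adjusted p = 0.004). Unlabelled Ddx20 held 132, 153, 150.2 and 157 CPM in DMSO and 228, 231, 207 and 227 CPM in STM2457, so the separation was present without s4U. Ddx51 held 45.2, 35.1, 32.7 and 32.4 CPM against 15.8, 24.9, 28.998 and 16.5 CPM, also without overlap. The Ddx51 call was lost without DMSO replicate 1 (-0.60), STM2457 replicate 1 (-0.64) or STM2457 replicate 4 (-0.65).

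During the chase, 3 helicase genes passed at 1 h (1.53% of all genes), 8 at 1.5 h (8.18%), 2 at 2.3 h (1.61%), 3 at 3.5 h (1.3%), 5 at 5.3 h (4.45%), 4 at 8 h (2.34%) and 4 at 12 h (5.41%). Ddx20 was among them at each of these time points, and Dhx16 from 1 to 8 h but neither at 0 h nor at 12 h. The genes at 1.5 h were Ddx20, Ddx24 and Ddx58, which were higher, and Ddx1, Ddx3x, Ddx19a, Dhx15 and Dhx16, which were lower. At 5.3 h they were Ddx20 and Ddx24, higher, and Ddx25, Ddx46 and Dhx16, lower. At both of these time points every DMSO library scored below every STM2457 library on the axis. The scores were -44.4 to -6.87 against 17.7 to 21.6 at 1.5 h, and -54.7 to -3.25 against 0.4 to 13 at 5.3 h. Treatment and axis score thus cannot be told apart at these time points by themselves. With the axis as a covariate, Ddx1, Ddx19a, Ddx24, Ddx58 and Dhx15 were lost at 1.5 h and 7 genes were called, and Ddx24, Ddx25 and Ddx46 were lost at 5.3 h and 5 were called. At 3.5 h the covariate gave 4. For these covariate fits, the shares of all genes called are not given here. Without DMSO replicate 2 the count at 1.5 h was 3, and the count at 5.3 h was 12 without DMSO replicate 1 and 2 without DMSO replicate 3 or 4. At 12 h, Ddx28 (1.34 ± 0.17, adjusted p = 6.4e-09), Ddx20 (0.62 ± 0.097, adjusted p = 2.5e-06) and Ddx42 (0.47 ± 0.12, adjusted p = 0.0039) were higher and Ddx27 was lower (-0.41 ± 0.11, adjusted p = 0.0061). Ddx42 and Ddx27 at 12 h were both lost without DMSO replicate 2 or 3 or STM2457 replicate 1, Ddx42 also without DMSO replicate 1, and Ddx27 also without DMSO replicate 4 or STM2457 replicate 2 and with uniquely mapping reads (-0.39). Counting pairs of a gene and a time point whose treatments did not overlap, 95 of 400 pairs of helicase genes were separate, against 14.3% of 101272 pairs over all genes. These time points share their libraries with the mean over the chase.

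The treatments drifted apart or together with time for 3 helicase genes, against 3.42% of all genes tested for such a trend. The log2 difference of STM2457 over DMSO increased per hour of chase by 0.072 ± 0.015 for Ddx28 (adjusted p = 0.00068), by 0.064 ± 0.014 for Ddx23 (adjusted p = 0.0018) and by 0.050 ± 0.0097 for Ddx3x (adjusted p = 0.00021). For Ddx28 the difference went from 0.32 at 0 h to 1.34 at 12 h. For Ddx3x it went from -0.39 to 0.12, so the fall seen early was not present at the end. Ddx23, a helicase that acts when the spliceosome exchanges U1 for U6, had 51.7, 58.4, 34.4 and 43.01 CPM in DMSO and 34.97, 36.6, 29.3 and 34.3 in STM2457 at 0 h. At 8 h it had 27.5, 32.8, 33.2 and 34.2 against 41.02, 45.5, 40.5 and 42.6 CPM. DMSO reached higher than STM2457 early, with overlap, and every STM2457 library exceeded DMSO at 8 h. Its trend was no longer called without DMSO replicate 2 (0.051) or STM2457 replicate 1 (0.062) or 3 (0.063).

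Part of the drift lay in the DMSO libraries themselves. Between 0 and 12 h of chase in DMSO, 6 helicase genes fell and 0 rose, while 13% of all genes changed, 8.2% lower and 4.84% higher. Ddx28 fell most, by 1.74 on the log2 scale (SE 0.17, adjusted p = 1e-12). Its DMSO libraries held 67.2, 74.3, 50.6 and 61.1 CPM at 0 h, and all 4 were above those at 12 h given above. Dhx16 (-0.78 ± 0.098, adjusted p = 5.6e-09), Ddx21 (-0.70 ± 0.13, adjusted p = 6.3e-05), Ddx23 (-0.60 ± 0.16, adjusted p = 0.0028), Ddx42 (-0.48 ± 0.12, adjusted p = 0.0015) and Ddx39 (-0.39 ± 0.10, adjusted p = 0.0024) were the others. Without DMSO replicate 2 the count was 3, and Ddx23, Ddx39 and Ddx42 were the calls lost. The libraries at 0 h scored from -39.2 to -0.23 on the axis and those at 12 h from 19.7 to 27.4. With the axis as a covariate, Ddx28 (-1.38), Dhx16 (-0.83) and Ddx39 (-0.53) were still called, but Ddx21 (-0.33, adjusted p = 0.021), Ddx23 (-0.42, adjusted p = 0.065) and Ddx42 (-0.26, adjusted p = 0.11) were not. That fit called 11 helicase genes, 9 lower and 2 higher (Ddx31 and Dhx32). Its share of all genes called is not given here, so this count has no background to be read against. This comparison shares its DMSO libraries with the treatment comparisons at 0 and 12 h and with the trend. Dhx16 also differed between labelled DMSO libraries at 0 h and unlabelled ones (0.45 ± 0.098, adjusted p = 0.0043), the 1 helicase gene to do so, against 0.513% of all genes. Unlabelled DMSO libraries held 204, 230.2, 214 and 242 CPM of Dhx16, all below the labelled libraries at 0 h. That call was lost when any 1 of the 4 DMSO replicates was left out (0.42 to 0.51).

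The T-to-C conversion rate, the share of covered T positions read as C, gives the label itself. Pooled over the helicase genes, it was 1.42 ± 0.12% (SD, n = 4) in DMSO and 1.27 ± 0.064% in STM2457 at 0 h. The libraries ran from 1.27 to 1.55% and from 1.21 to 1.33%, so the treatments overlapped. At 12 h the rates were 0.158 ± 0.0079% and 0.126 ± 0.0071%, from 0.147 to 0.166% and from 0.116 to 0.131%, without overlap. Unlabelled libraries gave 0.0787 ± 0.0032% and 0.0831 ± 0.010%, which is the background of the method. All genes pooled kept more label at 12 h, 0.279 ± 0.010% in DMSO and 0.223 ± 0.0060% in STM2457. The median half-life over single transcripts, given below, went the other way, at 3.55 h for helicase transcripts and 3.19 h for all in DMSO. Why the pooled rate and this median differ was not tested.

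**Figure D4:**
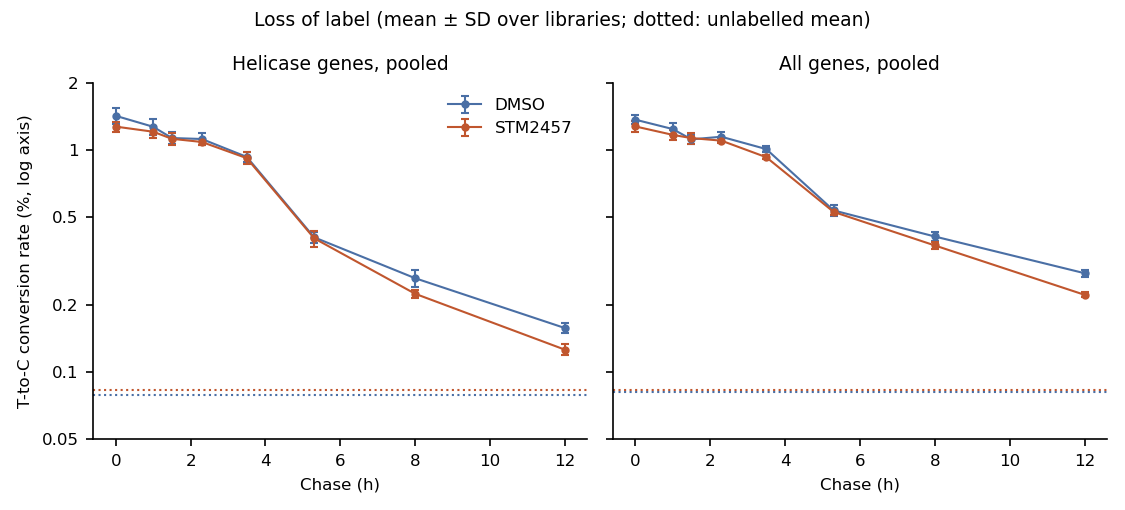
T-to-C conversion rate in percent (y, log axis) against hours of chase (x), pooled over helicase genes (left) and over all genes (right), as mean ± SD over libraries, with dotted lines for unlabelled libraries, DMSO in blue and STM2457 in orange. Helicase transcripts fell from 1.42% to 0.158% in DMSO over 12 h, and all genes from 1.37% to 0.279%.

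No helicase gene passed in either test of conversions. At 0 h, edgeR called 0 of 47 helicase genes and 0.0% of 8806 genes, with 0 and 74 at an unadjusted p under 0.05, and the median log2 difference was -0.16 over helicase genes and -0.11 over all. For the label kept during the chase, the log2 rate over 2.3 to 8 h relative to 0 h was compared between treatments. Again 0 of 47 helicase genes were called, against 0.0341% of all genes, with 7 and 440 at an unadjusted p under 0.05. The median was 0.29 over helicase genes and 0.089 over all genes, and 72.3% of the helicase genes lay above 0, against 58.9% of all genes. These differences are relative to 0 h, where the pooled rate was lower in STM2457. The pooled rates themselves were not higher in STM2457 within this window, at 1.09, 0.918, 0.4003 and 0.225% against 1.12, 0.930, 0.404 and 0.265% in DMSO at 2.3, 3.5, 5.3 and 8 h. The window leaves out 12 h, where STM2457 was lower without overlap. The 7 were Dhx33, Ddx20, Dhx32, Ddx24, Ddx28, Dhx30 and Ddx18, each with more label kept in STM2457.

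The largest of these differences was that of Dhx32 (1.24 ± 0.49, adjusted p = 0.77). Its rate at 5.3 h was 0.0278, 0.436, 0.161 and 0.109% in the 4 DMSO libraries and 0.874, 0.550, 0.861 and 0.522% in the STM2457 libraries, without overlap. Dhx33, a nucleolar helicase, differed by 1.11 ± 0.40 (adjusted p = 0.55) and Dhx57 by 1.01 ± 0.98 (adjusted p = 1.0). At the other end lay Ddx51 (-0.58 ± 0.70), Ddx25 (-0.53 ± 0.81) and Ddx49 (-0.46 ± 0.38), none past the threshold. Leaving out 1 replicate moved Ddx51 from -1.45 to -0.14, Ddx49 from -0.65 to -0.23 and Ddx25 from -1.15 to 0.029. Ddx20 differed by 0.73 ± 0.27 (adjusted p = 0.59) and Ddx28 by 1.00 ± 0.50 (adjusted p = 1.0). At 5.3 h Ddx28 had 0, 0.0228, 0.140 and 0.0352% in DMSO and 0.139, 0.225, 0.313 and 0.375% in STM2457, which overlapped by 1 library on each side, and its unlabelled libraries averaged 0.104 and 0.0911%. Dhx16, whose read count fell, differed by -0.11 ± 0.20 in label kept, and Ddx3x by -0.021 ± 0.20.

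Half-lives could be fitted for 38 of the 52 helicase transcripts and for 7407 transcripts in all. In DMSO the median was 3.55 h over helicase transcripts and 3.19 h over all, and in STM2457 it was 3.87 and 3.45 h. Of the 38, 24 were longer in STM2457 and 14 shorter, so that 63.2% were longer, against 56.7% of all transcripts. The median log2 difference was 0.11 over helicase transcripts and 0.069 over all. Over 4 series per treatment, each made of the libraries with 1 replicate number, the medians of 37 helicase transcripts were 3.54, 3.58, 3.46 and 3.66 h in DMSO and 4.24, 3.55, 3.63 and 3.76 h in STM2457. The first STM2457 series was the highest, and series 2 and 3 lay within the range of DMSO. The fourth STM2457 series lacks 3.5 h. Limma (adjusted p under 0.05) called 0 of 37 helicase transcripts and 0.0% of all 5767. An unadjusted p under 0.05 was reached by 4 and 406.

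The shortest DMSO half-lives were those of Ddx28 (1.80 h), Ddx20 (2.26 h) and the splicing helicase Dhx35 (2.39 h), at percentiles 11.02, 21.7 and 25.3 of all transcripts. In STM2457 they were 3.84, 3.92 and 3.58 h. The Ddx28 series gave 1.27, 2.91, 1.98 and 1.38 h in DMSO and 2.88, 3.03, 5.24 and 4.51 h in STM2457, which overlapped by 1 series on each side. Its log2 difference was 1.09 ± 0.34 (limma, adjusted p = 0.67). Ddx20 gave 2.65, 1.77, 3.36 and 1.65 h against 4.02, 4.50, 2.83 and 4.41 h, with a log2 difference of 0.78 ± 0.30 (adjusted p = 0.70). The largest difference was again that of Dhx32 (1.24 ± 0.34, adjusted p = 0.67). Its series ran from 2.22 to 3.54 h in DMSO and from 4.69 to 10.8 h in STM2457, without overlap.

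The longest DMSO half-lives were those of Ddx1 (6.52 h, and 6.70 h in STM2457), Ddx46 (5.89 and 6.21 h) and Ddx49 (5.84 and 4.53 h), at percentiles 92.8, 90.1 and 89.8. Ddx1 series ran from 4.50 to 15.8 h in DMSO, wider than its difference between treatments. By role, the medians in DMSO were 4.53 h for 10 spliceosomal transcripts and 3.30 h for 12 of ribosome assembly, and in STM2457 4.39 and 3.70 h. Dhx16, the largest fall in read count, had 4.62 h in DMSO and 4.63 h in STM2457. Ddx39 and Ddx39b were likewise long-lived, at 5.36 and 5.08 h in DMSO and 5.57 and 4.22 h in STM2457.

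**Figure D5:**
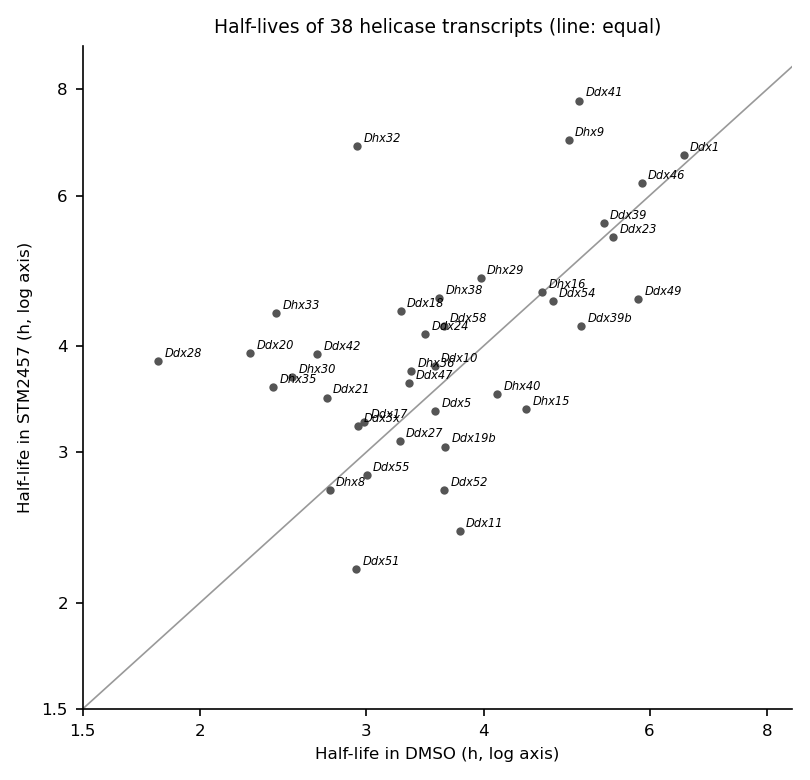
Half-life in STM2457 (y, h, log axis) against half-life in DMSO (x, h, log axis) of the 38 helicase transcripts with a fit in both treatments, with a line for equal values. Of the points, 24 lie above the line and 14 below it, and Dhx32, Ddx28, Dhx33 and Ddx20 lie farthest above it.

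The half-life of Dhx35 rests on a high background. Its unlabelled libraries already showed 1.28, 1.10, 1.79 and 1.23% conversion in DMSO and 1.68, 1.14, 0.474 and 1.22% in STM2457, against 2.67 ± 0.44% and 2.49 ± 0.56% at 0 h. At 5.3 h the rate was 1.37 ± 0.28% in DMSO and 0.874 ± 0.23% in STM2457, close to the unlabelled level in DMSO and below it in STM2457. Ddx39 had 0.251 ± 0.037% and 0.296 ± 0.047% in unlabelled libraries. The cause was not tested, and the difference in label kept for Dhx35 (0.077 ± 0.32) was computed without subtracting this background.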

How the data were processed

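QuantSeq 3′ end libraries were made from male mouse embryonic stem cells after s4U labelling and alkylation. The authors mapped reads to GRCm38 with SLAM-DUNK (0.4.3, up to 100 positions per read), masked T-to-C variants called in unlabelled libraries and deposited, per gene and library, raw read counts, covered T positions and conversions, summed over 3′ UTR windows. The conversion rate is deposited as a fraction, and equals conversions over covered T positions without background subtraction. The deposited CPM column was used only for a check, and equals reads scaled to a total of 1000000.

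From the counts, edgeR (4.0.16; TMM, filterByExpr) fitted 18 groups by quasi-likelihood over 12659 genes, and conversions were fitted with the logarithm of T coverage as offset (mean coverage above 100, at least 10 conversions at 0 h). Calls were made at a Benjamini-Hochberg adjusted p under 0.01. Half-lives came from exponential fits after background subtraction, kept from 0.67 to 18 h with a residual standard error up to 0.3, and were compared over series by limma (3.58.1, adjusted p under 0.05). All tests were two-sided. Levels in the text are CPM, not divided by length. Positions and transcripts came from GENCODE M21. R (4.3.3), DESeq2 (1.42.0) and Python (3.11.15) were used.

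Genes named were all members by role, with the 3 largest rises and falls in read count and in label kept, the 3 longest and shortest half-lives, every gene past the threshold at 0 h or in the trend, and the paralog pairs. Members and lists were chosen with earlier results of these data known. No column was left without a sample. Among 105 replicate pairs 0 had identical counts, and the lowest chi-square per degree of freedom was 2.92. Scripts were tested on simulated data. Alternatives were size factors, filters, tools, thresholds, uniquely mapping reads, left-out replicates and a replicate block, and, chosen after seeing the data, the library axis as a covariate and a subset of time points.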

Additional observations from a re-analysis of the deposited data

Results flagged for a closer look

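Helicase genes took 0.548% of the reads of STM2457 replicate 1 at 12 h, apart from the other libraries of its group, whose mean was 0.519%. It was the 1 such library in 36 group tests, where chance gives about 1 in 20, or 1.8 in all. Groups held 4 libraries, but 3 for STM2457 at 3.5 h.

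The log2 difference between STM2457 and DMSO changed with the hours of chase for Ddx28 (0.072 per h), Ddx23 (0.064 per h) and Ddx3x (0.05 per h), by the interaction test in edgeR. For Ddx28 and Ddx23 the DMSO libraries themselves fell between 0 and 12 h, for Ddx23 no longer past the threshold with the library axis as a covariate (adjusted p = 0.065), and for Ddx3x the change in DMSO did not pass (-0.26 ± 0.10, adjusted p = 0.061).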

How the results depend on the processing

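All 25 calls on the mean over the chase remained, in their direction, with RLE size factors, without a filter, with uniquely mapping reads, with only the libraries compared, with DESeq2 and with a replicate block, and 11 remained with only 2.3, 3.5, 8 and 12 h. Leaving out 1 replicate of 1 treatment gave 20 to 26 calls. The replicate numbers did not pair the libraries (correlations of deviations from -0.077 to 0.27 for read counts, and from 0.005 to 0.027 for half-lives), and the replicate block gave 26 calls for the mean over the chase, 2 at 0 h, 3 unlabelled and 10 at 1.5 h. Counts at single time points moved more. With an adjusted p under 0.05 there were 8 unlabelled, 3 at 0 h, 13 at 1.5 h, 5 at 2.3 h and 12 at 5.3 h. With the library axis as a covariate there were 5 unlabelled, 5 at 0 h, 5 at 1 h, 6 at 2.3 h, 7 at 8 h, 8 at 12 h, 6 in the trend and 11 for 12 h against 0 h in DMSO, which held 3 of the 6 calls made without it. For read counts, shares over all genes are given only for the fit described first, at an adjusted p under 0.01. The counts under all other settings, left-out replicates included, have no background to be read against. RLE size factors and uniquely mapping reads each gave 2 at 0 h, and DESeq2 gave 3 at 0 h and 8 at 5.3 h. Without a filter there were 2 at 12 h and 0 for labelled against unlabelled. With only the libraries compared there were 1 unlabelled, 7 at 12 h and 0 for labelled against unlabelled, and that setting was not run for single time points from 1 to 8 h. The cause was not tested.

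Leaving out replicates gave 1 to 3 calls unlabelled, 1 to 1 at 0 h, 2 to 3 at 1 h, 3 to 12 at 1.5 h, 2 to 3 at 2.3 h, 1 to 3 at 3.5 h, 2 to 12 at 5.3 h, 2 to 4 at 8 h, 2 to 6 at 12 h, 2 to 3 in the trend, 3 to 7 for 12 h against 0 h in DMSO and 0 to 1 for labelled against unlabelled. Conversions and half-lives gave 0 calls among helicase genes under every setting run. The median log2 half-life difference ran from 0.049 to 0.17 without a replicate, and from 0.003 (residual standard error up to 0.15) to 0.22 (no limit) otherwise. The label kept by Ddx25 ran from -1.149 to 0.029 over left-out replicates, and reversed without DMSO replicate 1. Genes with few reads, such as Dhx58 and Ddx60, are limited by depth.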

Other observations

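Related genes that the symbol rule did not take, Ddx6 among them, were read from lists chosen with earlier results known. Of 24 listed symbols of other RNA helicases, 23 were in the data and 20 had enough reads. Skiv2l2 was the symbol not found, which need not mean that the gene is missing under another symbol. Of these 20, 3 were higher over the chase and 4 lower, with a median log2 change of -0.045. Over all genes tested, 13.9% were higher and 12.6% lower, with a median of -0.009. Eif4a2, a translation initiation helicase, was higher (0.25 ± 0.034, adjusted p = 7.4e-09), and Ddx6, an mRNA decay factor, was lower (-0.14, adjusted p = 0.0018). G-patch proteins activate DEAH-box helicases, and of 20 tested, 5 were higher and 3 lower, with a median of 0.025. Gpatch4 was highest among them (0.62 ± 0.043, adjusted p = 2.6e-20), and Tfip11, a partner of Dhx15 in taking the spliceosome apart, was also higher (0.44, adjusted p = 1.5e-09). Sugp1 was lower (-0.29).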
